A study of Mus musculus with 10 samples.

Results

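Lymphocyte RNA was followed here through 8 marker genes in mammary epithelial cell preparations of FVB mice. The genes were chosen by name, with earlier results of these data known. They are markers of B cells (Cd79a, Cd79b, Ms4a1 and Cr2) and of T and natural killer (NK) cells (Cd3e, Cd3g, Cd8a and Nkg7), and are 8 of the 16290 genes in the deposited table. All 8 were found, and all 8 passed the filter for testing, a normalised read count of at least 10 in at least 2 libraries. RNA was sequenced in 10 libraries of 4 genotypes, which were NIC-Prmt1 (3 libraries), NIC-Carm1 (3), NIC-Prmt6 (2) and NIC (2). Every group carries NIC, which the labels do not spell out, and each group except NIC adds a protein arginine methyltransferase gene to it. The labels give no age, no sex, no promoter or cell type that drives a transgene, and no statement that libraries of a genotype came from different animals. The p-values below therefore measure the spread between libraries, which may be technical. Per the labels' protocols, the cells came from mammary glands 3 and 4 after enzyme treatment and short spins, and the labels do not say whether the lymph node was removed.

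B cells recognise antigen through a membrane immunoglobulin that signals inside the cell through its partner chains Cd79a and Cd79b. Ms4a1, also called CD20, is a membrane protein of B cells from the pre-B stage until they become plasma cells, and Cr2, also called CD21, is a complement receptor of mature B cells and of the follicular dendritic cells in B cell follicles. T cells recognise antigen through a receptor that signals through the CD3 chains, among them Cd3e and Cd3g. Cd8a is part of the co-receptor of cytotoxic T cells and is also made by some dendritic cells, and Nkg7 is a granule membrane protein of NK cells and cytotoxic T cells. In the mouse a lymph node lies inside the inguinal mammary fat pad, and scattered lymphocytes also live between the epithelial cells.

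Upstream sequence was taken from RefSeq (build GRCm38.p6), which held a window of 250 bases before the start for 6 of the 8 genes. Cd79b and Ms4a1 are named only. The sequences of Cr2, the gene with the largest spread between libraries of a genotype, of Cd3e, a chain of the T cell receptor complex, and of Nkg7, the gene with the smallest such spread, are shown so that genes with different patterns can be read side by side. Each runs 5′ to 3′ along the gene's strand and stops before the first base that lies in a GENCODE M21 exon. Capitals mark 2 short motifs, searched on both strands, the ETS-type hexamer AGGAAG and the E-box CANNTG.
Cr2, chr1:195176720-195176969, minus strand: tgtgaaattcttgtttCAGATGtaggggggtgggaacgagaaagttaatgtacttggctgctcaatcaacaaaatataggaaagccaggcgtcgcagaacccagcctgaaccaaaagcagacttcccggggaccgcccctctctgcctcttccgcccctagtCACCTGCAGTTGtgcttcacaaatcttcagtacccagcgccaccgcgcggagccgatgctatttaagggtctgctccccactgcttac
Cd3e, chr9:45009628-45009861, minus strand: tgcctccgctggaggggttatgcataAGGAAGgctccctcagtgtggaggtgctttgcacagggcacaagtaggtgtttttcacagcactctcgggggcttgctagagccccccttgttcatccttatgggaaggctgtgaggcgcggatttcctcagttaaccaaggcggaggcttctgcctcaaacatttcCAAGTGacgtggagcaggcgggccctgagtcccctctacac
Nkg7, chr7:43436888-43437072, plus strand: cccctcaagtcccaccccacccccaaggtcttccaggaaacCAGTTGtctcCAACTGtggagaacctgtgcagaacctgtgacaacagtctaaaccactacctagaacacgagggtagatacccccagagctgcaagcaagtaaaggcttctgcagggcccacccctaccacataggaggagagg
The printed Cr2 stretch held 3 E-boxes and 0 ETS hexamers, the Cd3e stretch 1 of each, and the Nkg7 stretch 2 E-boxes and 0 ETS hexamers. No base of the 6 windows lay in both motifs. Over the full windows, the ETS hexamer was present in Cd79a, Cd3e and Nkg7 and in 29.48% of all 32851 RefSeq windows of that length, and the E-box was present in all 6 and in 66.22% of all windows. The octamer ATGCAAAT (1.601% of all windows), the palindromic core of the B cell factor EBF1 (0.7793%) and TATAAA (12.37%) were in 0 of the 6, and the RUNX core TGTGGT (14.05%) was in Nkg7 alone. These matches describe letters in a window and say nothing of binding.

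Between 21589274 and 30260921 reads per library were recovered from the deposited values. The 12 luminal epithelial markers, of the labelled cell type, summed to 169700 to 243900 normalised reads in NIC-Prmt1, 146200 to 181900 in NIC-Carm1, 156100 to 158100 in NIC-Prmt6 and 257500 to 305400 in NIC. RNA of other cell types was also abundant. The 7 fibroblast genes summed to 114500 to 157300 in NIC-Prmt1 and 78230 to 95010 in NIC-Carm1. They summed to 293200 to 293400 in NIC-Prmt6 and 79330 to 99480 in NIC. In NIC-Prmt6 this sum exceeded that of the luminal markers, but sums of different gene lists also depend on the length and number of the genes. Single libraries also stood apart. The 7 milk genes summed to 1013000 in NIC-Carm1 replicate 1 and to 161600 or less in the others, and the 7 skin keratinocyte genes to 20950 in NIC-Prmt1 replicate 1, 2779 in NIC-Prmt1 replicate 3 and 998 or less in the others. The part of this makeup in the lymphocyte values was not tested. NIC-Carm1 replicates 2 and 3, and NIC-Prmt6 replicates 1 and 2, were nearly identical over all genes. A chi-square test of their counts gave 2.65 and 2.41 per degree of freedom, against 27.2 to 101 for the other pairs of 1 genotype. Since counting noise alone gives values near 1, each was left in as a library of its own, but the 10 libraries hold fewer than 10 independent points.

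The B cell genes were high in 5 libraries, NIC-Prmt1 replicate 2, NIC replicate 1 and all 3 of NIC-Carm1, and low in the other 5, so that libraries of the same genotype stood on opposite sides in NIC-Prmt1 and in NIC. Cd79a (ENSMUSG00000003379.7, chr7:24897381-24902197, plus strand), a protein-coding gene like the other 7 and placed on GRCm38 as they are, had 57.3, 398 and 58.9 normalised reads in NIC-Prmt1 replicates 1 to 3, 146, 154 and 129.9 in NIC-Carm1 replicates 1 to 3, 64.3 and 61.9 in NIC-Prmt6 replicates 1 and 2, and 331 and 80.6 in NIC replicates 1 and 2. Cd79b (ENSMUSG00000040592.11, chr11:106311341-106314762, minus strand), its partner chain, had 18.0, 176 and 17.6 in NIC-Prmt1, 69.8, 74.8 and 68.9 in NIC-Carm1, 31.7 and 31.0 in NIC-Prmt6, and 162 and 6.50 in NIC, in the same order. Both signal chains were thus highest in NIC-Prmt1 replicate 2 and second in NIC replicate 1, and the NIC-Prmt1 and NIC groups overlapped. Ms4a1 (ENSMUSG00000024673.9, chr19:11249675-11266241, minus strand) had 0, 134 and 2.07 in NIC-Prmt1, 57.4, 41.1 and 66.9 in NIC-Carm1, 4.53 and 3.44 in NIC-Prmt6, and 149 and 6.50 in NIC. Cr2 (ENSMUSG00000026616.15, chr1:195136811-195176716, minus strand) had 3.18, 144 and 0 in NIC-Prmt1, 67.6, 61.7 and 64.0 in NIC-Carm1, 1.81 and 0 in NIC-Prmt6, and 50.1 and 1.30 in NIC. For both of these surface proteins of mature B cells the 5 low libraries held at most 5 reads each. For Ms4a1 0 reads were counted in NIC-Prmt1 replicate 1, and for Cr2 0 reads in NIC-Prmt1 replicate 3 and NIC-Prmt6 replicate 2. A count of 0 allows up to 3 reads, a normalised read count of up to 3.18, 3.10 and 2.58 in those libraries. In bulk RNA, fewer cells of a type and less RNA per cell cannot be told apart.

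**Figure D1:**
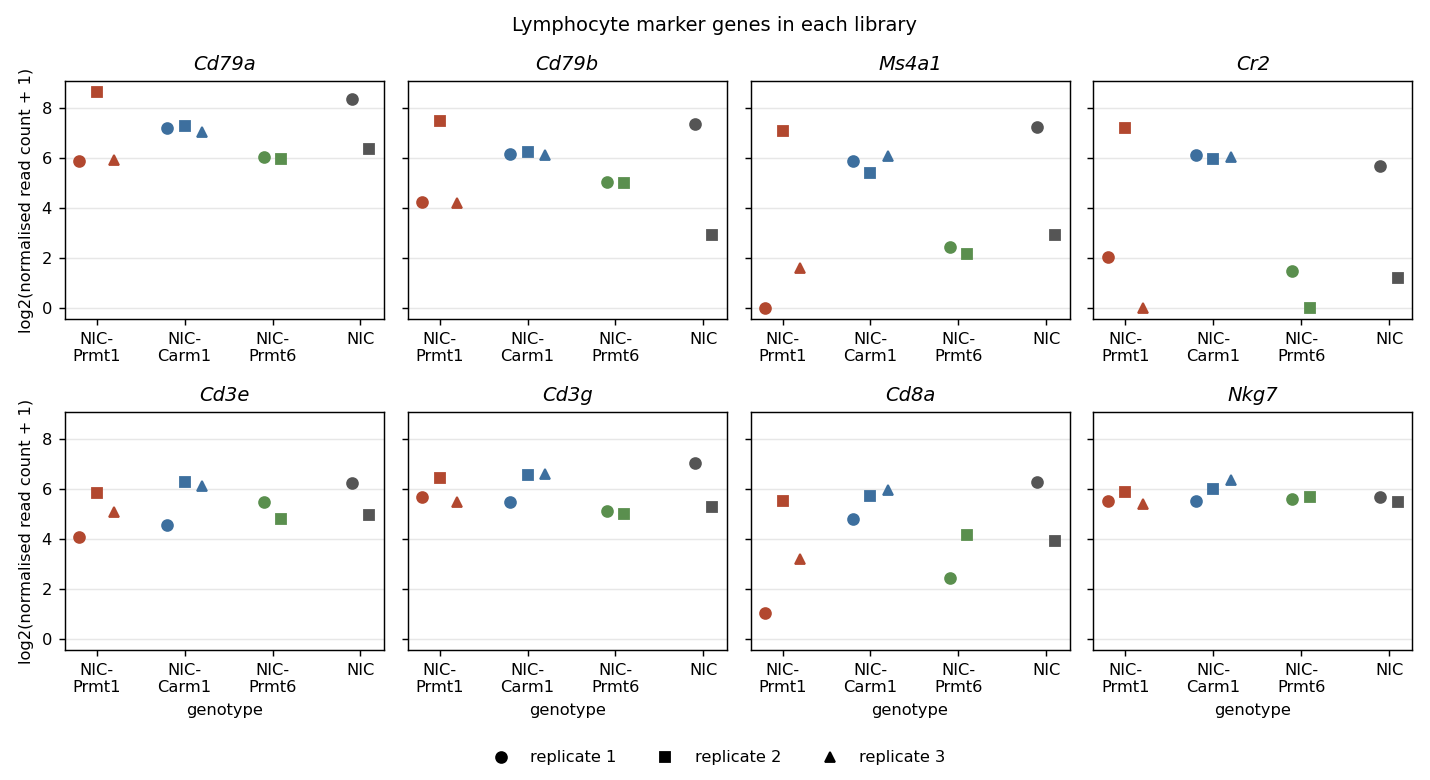
Each panel plots log2(normalised read count + 1) of 1 lymphocyte gene on the y axis, with the 4 genotypes on the x axis and a point for each library (circle, square and triangle for replicates 1, 2 and 3). Ms4a1 and Cr2 split the libraries of NIC-Prmt1 and of NIC far apart, Cd79a keeps at least 57.3 normalised reads in every library, and Nkg7 lies between 41.3 and 81.5 throughout.

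The 4 B cell genes did not fall to the floor together. In the libraries low in Ms4a1 and Cr2, Cd79a still had 57.3 to 80.6 normalised reads. Cd79a made up 73.0%, 75.0%, 62.8%, 64.3% and 84.9% of the summed B cell value in NIC-Prmt1 replicates 1 and 3, NIC-Prmt6 replicates 1 and 2 and NIC replicate 2, against 39.4% to 47.8% in the other 5 libraries. Ms4a1 made up 0% to 6.85% of that sum in those 5 and 12.4% to 21.6% in the others. Cd79b also differed among the low libraries, at 31.0 and 31.7 in NIC-Prmt6 and 6.50 in NIC replicate 2. Per kilobase of exon, the scale on which genes can be compared with each other, the median level over libraries was 72.3 for Cd79a, 35.1 for Cd79b, 3.85 for Ms4a1 and 3.28 for Cr2.

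The T cell genes Cd3e and Cd3g varied between libraries in a related but shallower way. Cd3e (ENSMUSG00000032093.7, chr9:44998740-45009627, minus strand) had 15.9, 55.9 and 33.1 normalised reads in NIC-Prmt1 replicates 1 to 3, 22.5, 77.3 and 67.9 in NIC-Carm1 replicates 1 to 3, 43.5 and 26.7 in NIC-Prmt6 replicates 1 and 2, and 74.7 and 29.9 in NIC replicates 1 and 2. Cd3e shares 135 exon bases with the antisense gene Gm48719, and the strand setting of the counting is not given in the sources used here, so reads of that stretch cannot be assigned. Cd3g (ENSMUSG00000002033.14, chr9:44969572-44980431, minus strand) had 50.9, 87.0 and 43.4 in NIC-Prmt1, 43.9, 92.9 and 95.0 in NIC-Carm1, 33.5 and 31.0 in NIC-Prmt6, and 129.5 and 37.7 in NIC. Both CD3 chains were high in NIC-Prmt1 replicate 2, NIC replicate 1 and NIC-Carm1 replicates 2 and 3. NIC-Carm1 replicate 1, which was high for all 4 B cell genes, had rank 9 of 10 for Cd3e and rank 6 for Cd3g.

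Cd8a (ENSMUSG00000053977.13, chr6:71373427-71379173, plus strand) had 1.06, 44.5 and 8.27 normalised reads in NIC-Prmt1 replicates 1 to 3, 27.0, 52.6 and 62.1 in NIC-Carm1 replicates 1 to 3, 4.53 and 17.2 in NIC-Prmt6 replicates 1 and 2, and 76.5 and 14.3 in NIC replicates 1 and 2. Of the T and NK genes it had the widest spread, with 5 libraries at 27.0 or more and the other 5 at 17.2 or less, the same 5 libraries as for the B cell genes. Nkg7 (ENSMUSG00000004612.9, chr7:43437073-43438249, plus strand) had 45.6, 58.0 and 41.3 in NIC-Prmt1, 45.1, 63.3 and 81.5 in NIC-Carm1, 48.0 and 50.7 in NIC-Prmt6, and 51.0 and 44.2 in NIC. Nkg7 was the flattest of the 8 genes, and the ranges of all 4 genotypes overlapped. Per kilobase of exon the median level over libraries was 54.0 for Nkg7, 14.5 for Cd3g, 9.38 for Cd3e and 6.08 for Cd8a.

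Summed over the 4 B cell genes, the normalised read count was 78.5, 851 and 78.5 in NIC-Prmt1 replicates 1 to 3, 341, 331 and 329.7 in NIC-Carm1 replicates 1 to 3, 102 and 96.3 in NIC-Prmt6, and 692 and 94.9 in NIC. As a share of the library this was between 3.00 reads per 1000000 (exact Clopper-Pearson 95% binomial interval 2.36 to 3.755, counting error only) in NIC-Prmt1 replicate 3 and 33.9 (31.7 to 36.3) in NIC-Prmt1 replicate 2, so the extremes of the 10 libraries carried the same genotype label. Summed over the 4 T and NK genes it was 113.5, 245.5 and 126 in NIC-Prmt1, 138.5, 286 and 306 in NIC-Carm1, 129.5 and 126 in NIC-Prmt6, and 332 and 126 in NIC. The order of libraries differed between the sums, since NIC replicate 1 led the T and NK genes and NIC-Prmt1 replicate 2 led the B cell genes. The B cell sum was 0.692, 3.47 and 0.623 times the T and NK sum in NIC-Prmt1, 2.46, 1.16 and 1.08 times in NIC-Carm1, 0.790 and 0.767 times in NIC-Prmt6, and 2.09 and 0.753 times in NIC. This ratio, whose size also depends on gene length, was 1.08 or more in the 5 libraries named above and 0.790 or less in the other 5. With Nkg7 left out it was 1.47 to 4.54 in those 5 and 0.927 to 1.29 in the other 5. Without Nkg7, which hardly varied, the T cell sum was 67.9, 187.5 and 84.7 in NIC-Prmt1, 93.5, 223 and 225 in NIC-Carm1, 81.5 and 74.8 in NIC-Prmt6, and 281 and 81.9 in NIC.

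**Figure D2:**
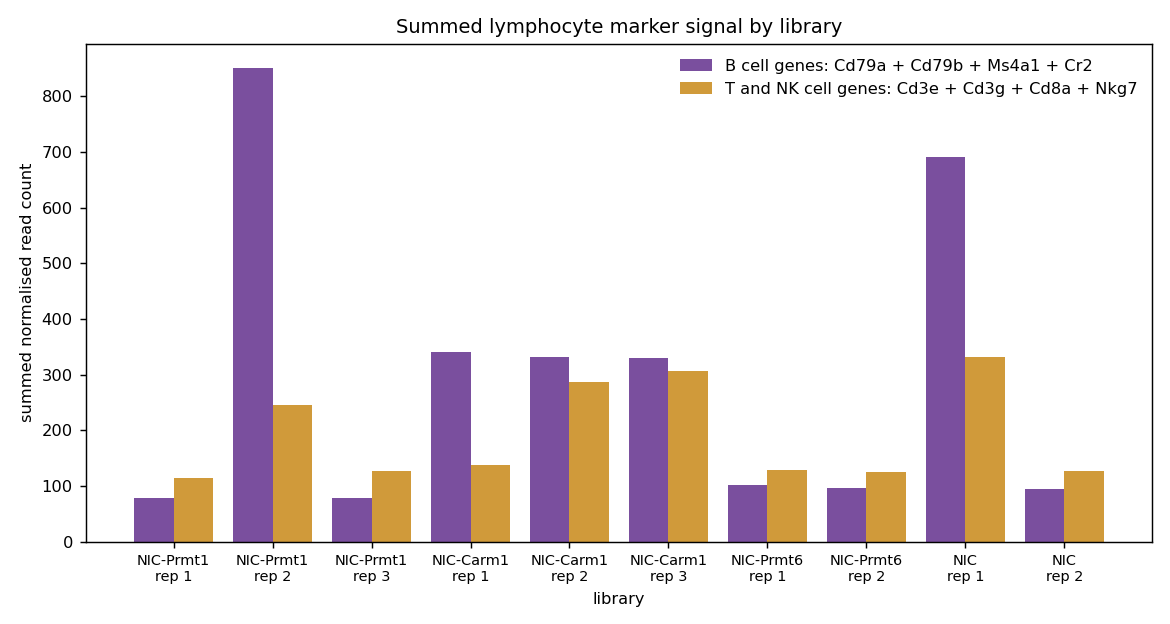
Bars give the summed normalised read count (y axis, from 0) of the 4 B cell genes and of the 4 T and NK cell genes in each of the 10 libraries (x axis). The B cell bars reach 851 in NIC-Prmt1 replicate 2 and 692 in NIC replicate 1, lie near 330 to 341 in NIC-Carm1, and stay at or under 102 in the other 5 libraries.

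The spread between libraries of the same genotype was unusually wide for most of the 8 genes. The standard deviation of log2(normalised read count + 1) within genotypes was 2.53 for Cr2, 2.49 for Ms4a1, 1.68 for Cd79b, 1.58 for Cd8a, 1.09 for Cd79a, 0.86 for Cd3e, 0.69 for Cd3g and 0.29 for Nkg7, and its median over all 15694 tested genes was 0.19. Among the genes within 2-fold of the same mean level, these values stood at percentile 99.6 for Cr2, 99.5 for Ms4a1, 98.2 for Cd79b, 97.7 for Cd8a, 98.4 for Cd79a, 91.4 for Cd3e, 89.4 for Cd3g and 28.8 for Nkg7. Differences between genotypes held 11.6% (Cd79b) to 47.6% (Cr2) of the variance of a lymphocyte gene, and the median over all tested genes was 73.36%. These percentiles are a description of the genes in these libraries, which include the pairs that are nearly identical. Since the 8 genes were chosen with earlier results of these data known, the percentiles are no test of their spread. Across the 10 libraries the Pearson r of log2 values between B cell genes was 0.84 to 0.93, between Cd3e, Cd3g and Cd8a 0.70 to 0.77, between a B cell and a T cell gene 0.57 to 0.92, and between Nkg7 and the others 0.42 to 0.69.

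**Figure D3:**
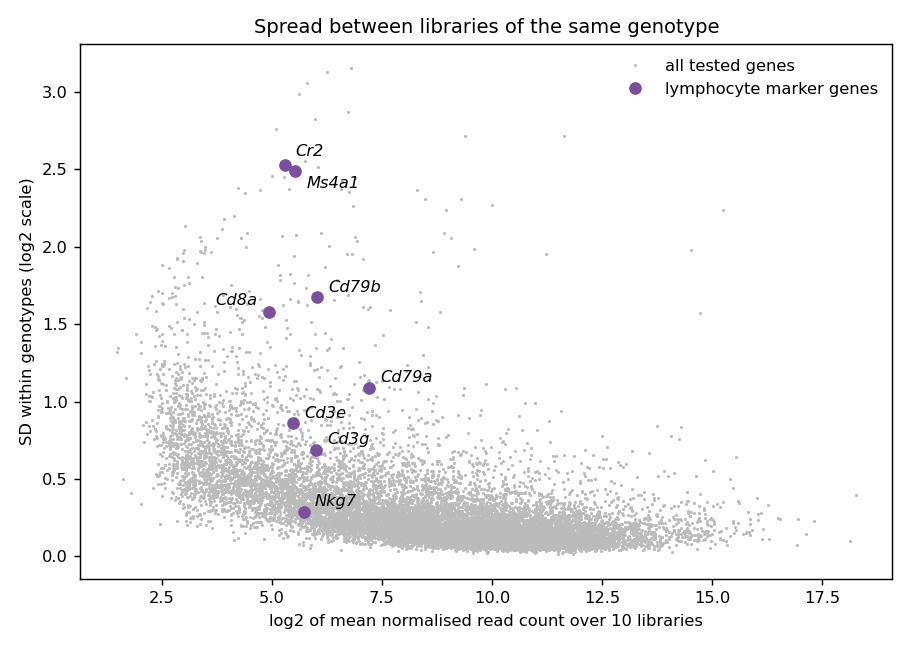
Each grey point is 1 of 15694 tested genes, with log2 of its mean normalised read count over the 10 libraries on the x axis and the standard deviation of log2(normalised read count + 1) within genotypes on the y axis; the 8 lymphocyte genes are in purple. Cr2 (2.53) and Ms4a1 (2.49) lie at the upper edge and Nkg7 (0.29) lies inside the bulk of genes at its level.

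Against NIC, no difference of a lymphocyte gene passed the test in any genotype. With 2 NIC libraries and this spread, the test could miss large shifts. In NIC-Prmt1 against NIC, 0 of the 8 genes passed the test (limma with Benjamini-Hochberg adjustment over all tested genes, threshold 0.05), where 29.6% of all tested genes did. The estimates, as log2 fold change ± SE, were -2.17 ± 1.79 for Ms4a1 (adjusted p = 0.379) and -1.85 ± 1.16 for Cd8a (adjusted p = 0.246), and for the other 6 genes they lay between -0.60 (Cd3e) and 0.19 (Cd79b), with an adjusted p of 0.511 to 0.983. The NIC-Prmt1 and NIC libraries overlapped for all 8 genes, where 55.3% of all tested genes had no overlap. In NIC-Carm1 against NIC, 0 of the 8 passed, where 16% of all tested genes did. Cr2 had the largest estimate, 2.59 ± 1.83 (adjusted p = 0.366), and Cr2 was the only gene of the 8 whose 3 NIC-Carm1 libraries all lay above both NIC libraries. Over all tested genes, 23.4% had every NIC-Carm1 library above every NIC library. In NIC-Prmt6 against NIC, 0 of the 8 passed, where 36.8% of all tested genes did. The estimates were -2.76 ± 1.96 for Ms4a1 (adjusted p = 0.294), -1.78 ± 1.26 for Cd8a (0.296), -1.36 ± 0.86 for Cd79a (0.240) and -1.10 ± 0.58 for Cd3g (0.161), and Cr2 was at -2.69 (0.317). Both NIC-Prmt6 libraries lay below both NIC libraries for Cd79a, Ms4a1 and Cd3g, 3 of the 8, which is near the 38.6% of all tested genes that did so. In these 3 comparisons 0 of the 8 genes had an unadjusted limma p under 0.05, and edgeR and DESeq2 on the recovered reads called 0 of the 8 after adjustment. DESeq2 gave Cr2 no adjusted p. At an unadjusted p under 0.05, edgeR and DESeq2 each had 1 gene in NIC-Prmt6 against NIC and 0 in the other 2. The share of all tested genes under that unadjusted threshold was not computed. Adjustment only raises a p, so that share is at least the share called after adjustment by the same method. In NIC-Prmt6 against NIC, edgeR called 5778 of the 15694 tested genes after adjustment.

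The median log2 fold change of the 8 genes was -0.46 in NIC-Prmt1, 0.39 in NIC-Carm1 and -1.23 in NIC-Prmt6 against NIC, beside medians between -0.011 and 0.0034 over all tested genes. These 3 comparisons share the NIC libraries, of which replicate 1 lay above replicate 2 for all 8 genes. The estimates moved with the NIC library used. Without NIC replicate 2 and without NIC replicate 1, Ms4a1 was at -4.34 and -0.011 in NIC-Prmt1 and at -4.92 and -0.60 in NIC-Prmt6. Cd8a was at -3.02 and -0.68 in NIC-Prmt1, and Cr2 was at 0.36 and 4.83 in NIC-Carm1. These were the lowest and highest values over the 10 left-out libraries. Some calls turned on a single library. Without NIC-Prmt1 replicate 2, limma called Ms4a1 (log2 fold change -4.26, adjusted p = 0.0230) and Cd8a (-2.98, adjusted p = 0.0423) lower in NIC-Prmt1 than in NIC. These were 2 members out of 8, where 32.1% of all tested genes were called. Without NIC replicate 2, Cd3g was called lower in NIC-Prmt6 than in NIC (-1.97, adjusted p = 0.0352), 1 of the 8 genes, where 21% of all tested genes were called. With all libraries in, none of these 3 calls stood.

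**Figure D4:**
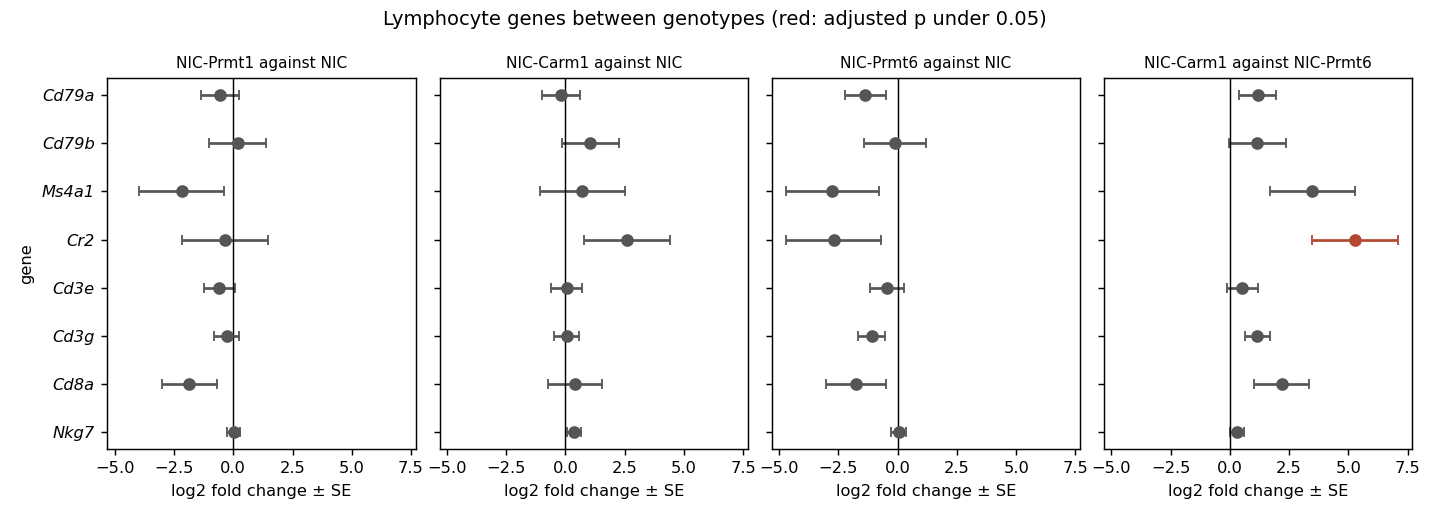
Points give the log2 fold change and bars its standard error (x axis) for the 8 lymphocyte genes (y axis), in NIC-Prmt1, NIC-Carm1 and NIC-Prmt6 against NIC and in NIC-Carm1 against NIC-Prmt6. Most bars reach 0 or lie close to it, and the only point in red, Cr2 in NIC-Carm1 against NIC-Prmt6 at 5.29 ± 1.83, is the only call.

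Between the methyltransferase genotypes, the clearest separation was that of NIC-Carm1 from NIC-Prmt6. All 3 NIC-Carm1 libraries lay above both NIC-Prmt6 libraries for Cd79a, Cd79b, Ms4a1, Cr2, Cd3g and Cd8a, 6 of the 8 genes, where 34.6% of all tested genes did so. By the test, Cr2 alone was higher in NIC-Carm1, with a log2 fold change of 5.29 ± 1.83 (limma adjusted p = 0.0428), 1 of 8 genes beside 18.4% of all tested genes called higher and 39.2% called in either direction. The mean level of Cr2 was 64.4 ± 2.97 normalised reads (SD, n = 3) for NIC-Carm1, against 0.906 ± 1.28 (SD, n = 2) for NIC-Prmt6. These came from 201 reads against 2 reads. The ratio of the pooled reads, scaled by the size factors of the libraries, was 72.7 (95% interval 19.9 to 604, counting error only). The call passed under 13 of the 20 settings in which Cr2 had an adjusted p, with values between 8.92e-04 and 0.247. DESeq2 gave Cr2 no adjusted p here. The call did not pass in edgeR, with the nearly identical libraries averaged, or without any 1 of the NIC-Carm1 or NIC-Prmt6 libraries. The estimates of Ms4a1 (3.48 ± 1.79, adjusted p = 0.147), Cd8a (2.19 ± 1.16, adjusted p = 0.157) and Cd3g (1.16 ± 0.53, adjusted p = 0.106) did not pass. Without NIC-Prmt1 replicate 2, Ms4a1 also passed (adjusted p = 0.0290), so that 2 of the 8 did, where 40.1% of all tested genes passed. When NIC-Carm1 and NIC-Prmt6 were fitted alone, without the spread of the other groups, 5 genes passed, namely Cd79a, Cd79b, Ms4a1, Cr2 and Cd8a, where 46.7% of all genes tested in that fit passed. Of the 5 libraries in that fit 4 belong to nearly identical pairs.

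In NIC-Prmt1 against NIC-Carm1 0 of the 8 passed, where 26.8% of all tested genes did, and the groups overlapped for all 8 genes, where 43% of all tested genes had no overlap. Without NIC-Prmt1 replicate 2, Ms4a1 (log2 fold change -4.98, adjusted p = 0.00800), Cr2 (-5.00, adjusted p = 0.0124) and Cd8a (-3.38, adjusted p = 0.0186) were lower in NIC-Prmt1, 3 of the 8 genes, where 30% of all tested genes were called. In NIC-Prmt1 against NIC-Prmt6 0 of the 8 passed, where 7.49% of all tested genes did. Cd3g, at 43.4 to 87.0 in NIC-Prmt1 and 31.0 to 33.5 in NIC-Prmt6, was the only gene of the 8 whose groups did not overlap there, where 22.4% of all tested genes had every NIC-Prmt1 library above every NIC-Prmt6 library. In both comparisons 0 genes had an unadjusted limma p under 0.05, and edgeR and DESeq2 called 0 after adjustment. DESeq2 again gave Cr2 no adjusted p. At an unadjusted p under 0.05 edgeR had 1 gene in NIC-Prmt1 against NIC-Prmt6, and the share of all tested genes at that threshold was not computed. A single test for any difference among the 4 genotypes (limma's moderated F) called 0 of the 8, where 52.8% of all tested genes passed, and without NIC-Prmt1 replicate 2 it called 3, namely Ms4a1, Cr2 and Cd8a, where 53.9% of all tested genes passed.

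Other genes of the same cell types varied in the same libraries. Of the 16 other B cell genes in the table, 13 were highest in NIC-Prmt1 replicate 2, and between 14 and 16 of them had each of the 5 libraries high in the members (NIC-Prmt1 replicate 2, NIC-Carm1 replicates 1 to 3 and NIC replicate 1) among their 5 highest. The other 5 libraries were among the 5 highest for at most 2 of the 16. Pou2af1, a coactivator that works with octamer-binding factors in B cells, had 20.2, 284 and 47.5 normalised reads in NIC-Prmt1 replicates 1 to 3, 161, 197 and 207.5 in NIC-Carm1, 57.0 and 47.3 in NIC-Prmt6, and 247 and 101.4 in NIC. The median log2 fold change of the 16 against NIC was -0.52 in NIC-Prmt1, 0.74 in NIC-Carm1 and -1.01 in NIC-Prmt6. By the test 1 of the 16 differed from NIC in each genotype, beside the 29.6%, 16% and 36.8% of all tested genes. Bach2, a transcription factor made in B cells and T cells, was lower in NIC-Prmt1 (-0.55 ± 0.16, adjusted p = 0.0293), and Cd180, a toll-like receptor relative made by B cells and myeloid cells, was higher in NIC-Carm1 (1.72 ± 0.41, adjusted p = 0.0221) and in NIC-Prmt6 (1.66 ± 0.45, adjusted p = 0.0172). Cd180 did not follow the other B cell genes, with 17.0, 49.7 and 39.3 in NIC-Prmt1, 50.7, 66.6 and 59.2 in NIC-Carm1, 48.9 and 64.5 in NIC-Prmt6, and 16.1 and 18.2 in NIC.

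Of the 23 other T cell genes, 21 were highest in NIC replicate 1 and all 23 had NIC-Prmt1 replicate 2 among their 5 highest libraries. NIC-Carm1 replicate 1 was among the 5 highest for 9 of the 23, and NIC-Carm1 replicates 2 and 3 for 22 and 21. Cd4, the co-receptor of helper T cells, had 49.9, 292 and 44.4 normalised reads in NIC-Prmt1 replicates 1 to 3, 304, 348 and 310.3 in NIC-Carm1, 96.0 and 86.0 in NIC-Prmt6, and 409 and 83.2 in NIC. The median log2 fold change of the 23 against NIC was -1.15 in NIC-Prmt1, 0.12 in NIC-Carm1 and -1.02 in NIC-Prmt6. By the test 29.6% of all tested genes differed from NIC in NIC-Prmt1, 16% in NIC-Carm1 and 36.8% in NIC-Prmt6. Of the 23 T cell genes 1 differed from NIC in NIC-Prmt1 and 0 did in NIC-Carm1 and NIC-Prmt6. That gene, Il7r, the receptor for the T cell survival factor interleukin-7, was lower in NIC-Prmt1 (-2.08 ± 0.54, adjusted p = 0.0188), at 29.7, 125 and 42.4 in NIC-Prmt1 and 338 and 159.9 in NIC. Of the 15 NK and cytotoxic cell genes no library was highest for more than 4. NIC replicate 1 was among the 5 highest libraries for 13 of the 15, NIC-Carm1 replicate 3 for 12, NIC-Prmt1 replicate 2 for 10, and each of the other 7 libraries for 3 to 8. Ncr1, a receptor of NK cells, was the only 1 of the 15 that passed against NIC, beside the same shares of all tested genes. Ncr1 was higher in NIC-Prmt1 (0.97 ± 0.33, adjusted p = 0.0484) and NIC-Prmt6 (1.40 ± 0.36, adjusted p = 0.0133).

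**Figure D5:**
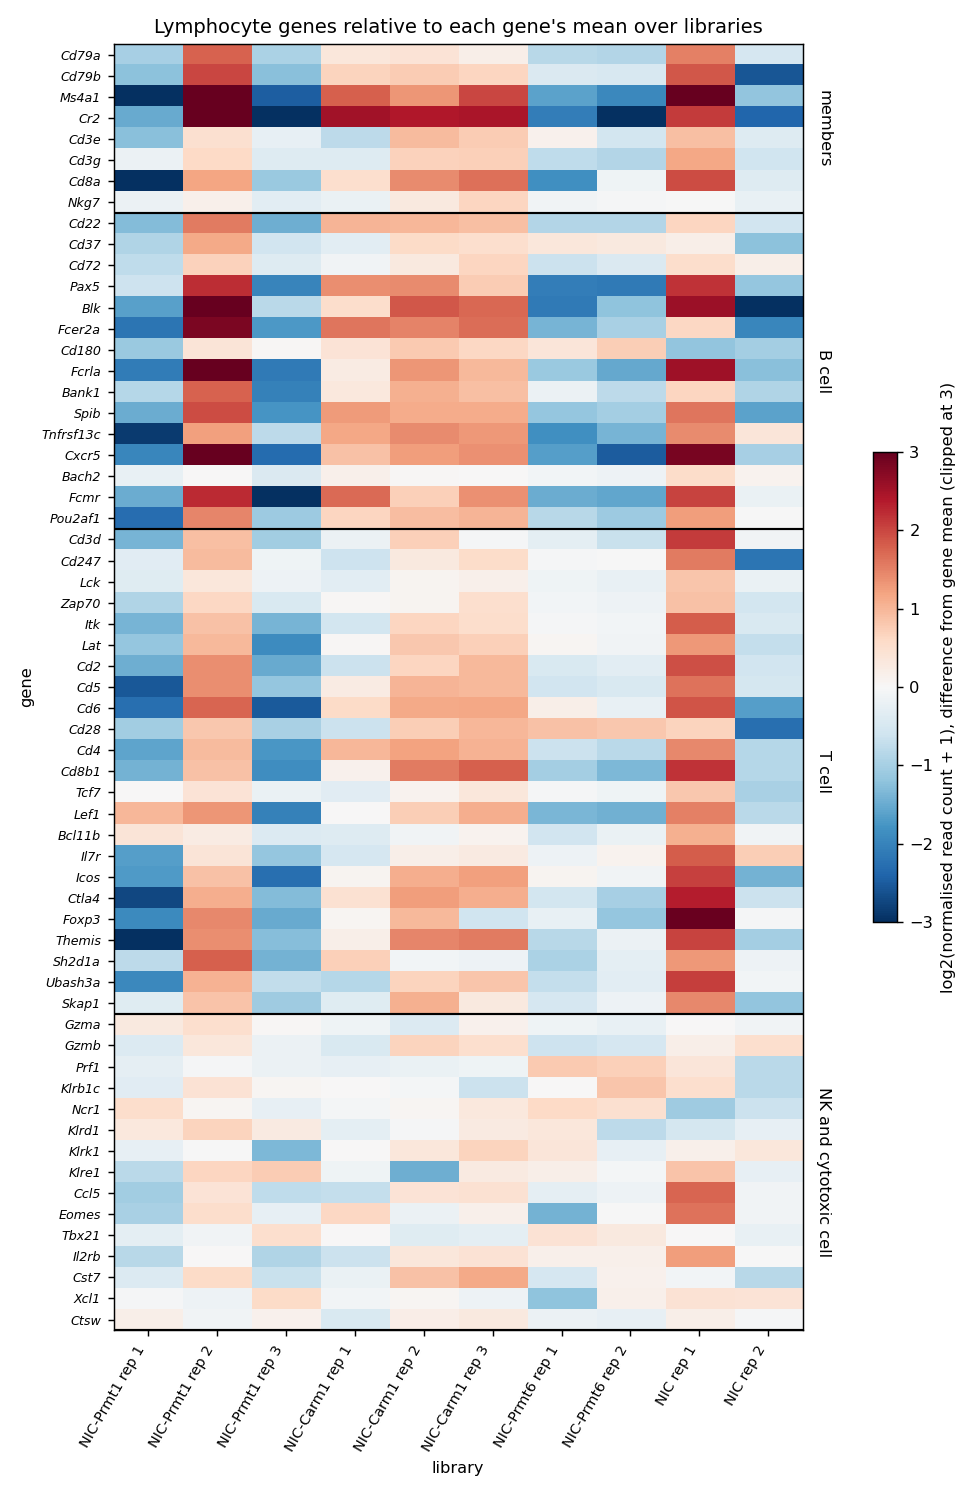
Rows are the 8 lymphocyte genes and genes of the B cell, T cell and NK and cytotoxic cell lists, columns are the 10 libraries, and colour is log2(normalised read count + 1) minus the gene's mean over libraries, clipped at 3 in either direction. Most B and T cell rows are red in NIC-Prmt1 replicate 2, NIC-Carm1 replicates 2 and 3 and NIC replicate 1 and blue in NIC-Prmt1 replicates 1 and 3, NIC-Prmt6 and NIC replicate 2, and the NK and cytotoxic rows are paler.

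Many of the receptor signalling genes are also made by other cells. Of 14 genes of the B cell receptor pathway, 8 to 11 had each of NIC-Prmt1 replicate 2, NIC-Carm1 replicates 1 to 3 and NIC replicate 1 among their 5 highest libraries, and 1 to 6 had each of the other 5. Of 16 genes of the T cell receptor pathway, 12 to 14 had each of NIC-Prmt1 replicate 2, NIC-Carm1 replicates 2 and 3 and NIC replicate 1 among their 5 highest, and 0 to 9 had each of the other 6. By the test, of the 14 genes of the B cell receptor pathway 2 rose and 4 fell in NIC-Prmt1, 0 changed in NIC-Carm1, and 2 rose and 2 fell in NIC-Prmt6, each against NIC. Over all tested genes 15.2% rose and 14.4% fell in NIC-Prmt1, 6.65% rose and 9.36% fell in NIC-Carm1, and 19% rose and 17.8% fell in NIC-Prmt6. Fcgr2b, an inhibitory antibody receptor also made by macrophages, rose by 1.27 ± 0.30 in NIC-Prmt1 and 2.01 ± 0.33 in NIC-Prmt6 (limma adjusted p = 0.0124 and 0.00171), and Plcg2, a phospholipase, fell by 0.72 ± 0.21 in NIC-Prmt1 and 0.84 ± 0.23 in NIC-Prmt6 (adjusted p = 0.0299 and 0.0190). Of the 16 genes of the T cell receptor pathway 1 rose in NIC-Prmt1, 1 rose and 2 fell in NIC-Carm1, and 2 rose in NIC-Prmt6. Plcg1, another phospholipase, rose in all 3 genotypes, by 0.42 ± 0.11, 0.51 ± 0.11 and 0.63 ± 0.13 (adjusted p = 0.0222, 0.0169 and 0.00435), while the kinase gene Fyn fell by 0.67 ± 0.12 in NIC-Carm1 (adjusted p = 0.00772) and rose by 0.77 ± 0.14 in NIC-Prmt6 (adjusted p = 0.00236).

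The genes most like the summed B cell genes across the 10 libraries, by Pearson r of log2 values, included Fcrla (0.98), Cxcr5 (0.98), Spib (0.98), Fcrl1 (0.97), Serpina10 (0.96), Traf3ip3 (0.96), Il22ra2 (0.95), Pax5 (0.94) and Cd22 (0.94). Fcrla, Cxcr5, Spib, Pax5 and Cd22 are on the B cell list, and r was over 0.9 for 29 of 15686 genes. For the summed T and NK genes they were Cd8b1 (0.96), Thap4 (0.93), 5830411N06Rik (0.92), Cd2 (0.92), Ciita (0.91), Gimap3 (0.91), Cd52 (0.91), Gm8221 (0.91), Ptpn22 (0.91) and Tnfrsf18 (0.91), with r over 0.9 for 13 genes. Cd8b1, the partner chain of Cd8a, had 3.18, 19.7 and 2.07 normalised reads in NIC-Prmt1 replicates 1 to 3, 11.3, 32.1 and 37.8 in NIC-Carm1, 4.53 and 3.44 in NIC-Prmt6, and 49.1 and 5.20 in NIC. Thap4 varied little, from 728 to 846 normalised reads over the libraries. Serpina10, 5830411N06Rik and Gm8221 were low, with mean values of 10.4, 10.5 and 6.88. These r values describe libraries that share depth differences and nearly identical pairs, and no p is given.

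Genes made by the vessels and stroma of lymph nodes were read beside the lymphocyte genes, and those named here, other than Enpp2 and Clu, were chosen after their values were seen. Chst4, a sulfotransferase of high endothelial venules, the vessels through which lymphocytes enter lymph nodes, had 0, 40.4 and 0 normalised reads in NIC-Prmt1 replicates 1 to 3, 34.9, 60.04 and 52.4 in NIC-Carm1 replicates 1 to 3, 0 and 0 in NIC-Prmt6, and 27.4 and 1.30 in NIC. Chst4 was thus at 27.4 or more in the same 5 libraries in which Ms4a1 and Cr2 were high and at or under 1.30 in the other 5. Glycam1, made by those venules and also by milk-secreting cells, had 14.8, 2668 and 12.4 in NIC-Prmt1, 15990, 5057 and 4969 in NIC-Carm1, 9.96 and 11.2 in NIC-Prmt6, and 2896 and 352 in NIC. Cxcl13, the chemokine that draws B cells into follicles, had 17.0, 376 and 11.4 in NIC-Prmt1, 118, 102 and 100.9 in NIC-Carm1, 90.6 and 69.7 in NIC-Prmt6, and 146 and 31.2 in NIC. Cxcl13 was highest in NIC-Prmt1 replicate 2, as were Cd79a, Cd79b and Cr2. Ccr7, a homing receptor of T cells and dendritic cells, had 25.5, 605 and 24.8 in NIC-Prmt1, 148, 321 and 352 in NIC-Carm1, 121 and 110.1 in NIC-Prmt6, and 1309 and 363 in NIC. Over the whole list of 8 lymph node genes in the table, the summed value was 19340 to 24240 in NIC-Prmt1, 17210 to 22880 in NIC-Carm1, 22460 to 22580 in NIC-Prmt6 and 17520 to 22350 in NIC, most of it from Clu, which many cells make. The list as a whole did not follow the split seen in Chst4. Each of the 5 libraries high in Ms4a1 and Cr2 was among the 5 highest for 4 to 6 of the 8 genes, and each of the other 5 for 0 to 5. Enpp2, an enzyme that makes a signalling lipid in high endothelial venules and many other cells, had 1617, 1730 and 1251 in NIC-Prmt1, 1189, 1051 and 1116 in NIC-Carm1, 1802 and 1810 in NIC-Prmt6, and 1513 and 611 in NIC, and was thus highest in NIC-Prmt6. The pan-leukocyte gene Ptprc had 438, 1011 and 462 in NIC-Prmt1, 621, 1022 and 1026 in NIC-Carm1, 899 and 895 in NIC-Prmt6, and 1193 and 473 in NIC. Ptprc was thus not low in NIC-Prmt6, where the 4 B cell genes were. The part that tissue taken with the glands had in the lymphocyte values was not tested.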

How the data were processed

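The deposited table gives a normalised signal per gene, read counts divided by 1 size factor per library, for 16290 genes in 10 libraries. Per the submitters' processing notes, TopHat2 2.0.10, HTSeq 0.6.0, DESeq 1.18.0 and mm10 were used. Annotation, strand setting and low-count filter: not given in the sources used here. In every column 100% of values were whole multiples of the smallest step (tolerance 0.01), which recovered 21589274 to 30260921 whole reads per library.

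A gene was tested if 2 or more libraries reached a value of 10 (15694 genes), with limma-trend 3.58.1 in R 4.3.3 on log2(value + 1), so fold changes of low genes are understated. All 10 libraries entered 1 fit with 4 genotype means (residual degrees of freedom: 6). Benjamini-Hochberg adjustment ran over all genes tested (threshold 0.05). The code was tested on simulated data. edgeR 4.0.16 and DESeq2 1.42.0 on the recovered reads, other pseudocounts, filters, scalings and subsets were alternatives.

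The 8 genes and all lists were chosen with earlier results of these data known. Named genes were the 8, the 4 most abundant members of 7 lists (B cell, plasma cell, T cell, NK and cytotoxic cell, B and T cell receptor pathways, lymph node stroma), list members that differed from NIC, and the 10 genes most like each summed profile. The text gives examples of these, and 1 gene of the B cell list is counted but not reported here by name. List genes outside the table were not analysed here. Gene positions are from GENCODE M21 (GRCm38).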

Additional observations from a re-analysis of the deposited data

How the results depend on the processing

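Of 950 values recomputed for the 8 genes, 54 changed sign, none of them called before or after, 12 gained a call and 7 lost it. The 7 lost calls were all Cr2 in NIC-Carm1 against NIC-Prmt6. Counts of called genes kept within 1.5 times under TMM rescaling, other pseudocounts, no filter and the stricter filter. The cause of the changes below was not tested. The sum scalings were chosen after seeing the data. Few reads limit Ms4a1, Cr2 and Cd8a, and 2 or 3 libraries per genotype limit every test.

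With edgeR the log2 fold change turned to -0.28 (Cd79b) and 0.87 (Cr2) in NIC-Prmt1 against NIC, -0.26 (Cd79b), -0.52 (Ms4a1) and -0.12 (Cd3g) in NIC-Carm1 against NIC, 0.25 (Cd79a) in NIC-Prmt1 against NIC-Carm1, and 0.0065 (Cd3e) and 0.72 (Cd8a) in NIC-Prmt1 against NIC-Prmt6. With DESeq2 these were -0.26 (Cd79b), then -0.24 (Cd79b), -0.50 (Ms4a1) and -0.12 (Cd3g), then 0.26 (Cd79a), and 0.72 (Cd8a). Cd8a was at 0.12 with a pseudocount of 5 in NIC-Prmt1 against NIC-Prmt6. With near-identical libraries averaged, Cd3e was at -0.22 and Cd3g at -0.12 in NIC-Carm1 against NIC. Members called in NIC-Carm1 against NIC-Prmt6 were 1, but 0 in edgeR, 0 with libraries averaged and 5 with the 2 compared groups alone. Genes called in NIC-Prmt1 against NIC-Prmt6 were 1175, but 2119 in DESeq2. With the 2 compared groups alone 2785 genes were called in NIC-Prmt1 against NIC, not 4645, and 1596 in NIC-Carm1 against NIC, not 2513. With libraries averaged the counts against NIC were 2606 (NIC-Prmt1), 341 (NIC-Carm1) and 1667 (NIC-Prmt6, from 5778), and between methyltransferase genotypes 1364 (NIC-Prmt1 against NIC-Carm1, from 4199), 16 (NIC-Prmt1 against NIC-Prmt6) and 1261 (NIC-Carm1 against NIC-Prmt6, from 6157). Scaled to recovered reads, the B cell sum was 355.5 and 353.8 in NIC-Carm1 replicates 2 and 3.

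No pairing of libraries by replicate number was seen, but the check is weak. Deviations of same-numbered libraries from their genotype means correlated at -0.13 to 0.10 over 13 pairs, and 1 pair was over 0.1. Pairs with different numbers correlated at -0.16 to 0.17. Deviations within a genotype sum to 0, so these values depend on each other. They cannot decide whether same-numbered libraries shared a batch. With the replicate block, genes called were 1667 in NIC-Carm1 against NIC and 571 in NIC-Prmt1 against NIC-Prmt6, no member gained or lost a call, and the sign turned for Cr2 (0.42) and Nkg7 (-0.038) in NIC-Prmt1 against NIC and for Cd79a (0.067) and Cd3e (-0.081) in NIC-Carm1 against NIC.

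Where a setting left NIC-Prmt6 or NIC with 1 library, that library was assumed to vary like the other groups. Leaving out each library in turn, members called ranged from 0 to 2 in NIC-Prmt1 against NIC, 0 to 1 in NIC-Prmt6 against NIC, 0 to 3 in NIC-Prmt1 against NIC-Carm1, 0 to 2 in NIC-Carm1 against NIC-Prmt6 and 0 to 3 among the 4 genotypes. Without NIC-Carm1 replicate 1, Cd3g was the member called in NIC-Carm1 against NIC-Prmt6 (adjusted p = 0.0434). In that fit NIC-Carm1 and NIC-Prmt6 each held only a nearly identical pair, so each may hold fewer independent points than libraries. The number of all genes called in that fit lay between 2569 and 6799, the range for this comparison. Genes called ranged from 2271 to 5646 (NIC-Prmt1), 708 to 3384 (NIC-Carm1) and 2656 to 6632 (NIC-Prmt6) against NIC, 2638 to 4692 in NIC-Prmt1 against NIC-Carm1, 47 (without NIC-Prmt6 replicate 1, and 48 without its replicate 2) to 2241 (without NIC-Prmt1 replicate 1) in NIC-Prmt1 against NIC-Prmt6, and 2569 to 6799 in NIC-Carm1 against NIC-Prmt6. Log2 fold changes in NIC-Prmt1 against NIC ranged from -1.57 to 0.45 (Cd79a), -2.03 to 2.40 (Cd79b), -2.59 to 1.88 (Cr2), -1.24 to 0.051 (Cd3e), -1.15 to 0.60 (Cd3g) and -0.13 to 0.11 (Nkg7). In NIC-Carm1 against NIC they ranged from -1.20 to 0.82 (Cd79a), -1.17 to 3.27 (Cd79b), -1.45 to 2.88 (Ms4a1), -0.59 to 0.70 (Cd3e), -0.82 to 0.94 (Cd3g) and -0.77 to 1.58 (Cd8a). In NIC-Prmt6 against NIC they ranged from -2.33 to 2.11 (Cd79b), -1.11 to 0.18 (Cd3e) and -0.047 to 0.16 (Nkg7). For Cd79a in NIC-Prmt1 against NIC-Carm1 it was -1.29 to 0.10. In NIC-Prmt1 against NIC-Prmt6 they ranged from -0.12 to 1.27 (Cd79a), -0.78 to 0.84 (Cd79b), -1.50 to 2.04 (Ms4a1), -0.55 to 0.33 (Cd3e), -1.20 to 1.03 (Cd8a) and -0.18 to 0.059 (Nkg7).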

Other observations

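Genes of plasma cells, the antibody-secreting end stage of B cells, did not all follow the mature B cell genes. Mzb1, a chaperone of antibody-making cells, did, with 10.6, 32.1 and 3.10 normalised reads in NIC-Prmt1 replicates 1 to 3, 16.9, 23.9 and 30.1 in NIC-Carm1 replicates 1 to 3, 6.34 and 10.3 in NIC-Prmt6 replicates 1 and 2, and 35.0 and 2.60 in NIC replicates 1 and 2, so that its 5 highest libraries were those high in Ms4a1. Jchain, which joins secreted antibodies into polymers, had 21.2, 295 and 67.2 normalised reads in NIC-Prmt1 replicates 1 to 3, 101.4, 344 and 342 in NIC-Carm1 replicates 1 to 3, 293 and 341 in NIC-Prmt6 replicates 1 and 2, and 35.0 and 5.20 in NIC replicates 1 and 2. By limma, Jchain was higher in NIC-Carm1 (log2 fold change 3.94 ± 1.02, adjusted p = 0.0290) and in NIC-Prmt6 (4.41 ± 1.12, adjusted p = 0.0129) than in NIC, in every library, and its NIC-Prmt1 estimate was 2.36 ± 1.02 (adjusted p = 0.107). Jchain was thus high in both NIC-Prmt6 libraries, in which Ms4a1 was at 4.53 and 3.44, and low in NIC replicate 1, in which Ms4a1 was at 149. Of the 5 plasma cell genes in the table, 4 were tested, and against NIC 1 rose and 1 fell in NIC-Prmt1, 2 rose in NIC-Carm1, and 2 rose and 1 fell in NIC-Prmt6. Over all tested genes 15.2% rose and 14.4% fell in NIC-Prmt1, 6.65% rose and 9.36% fell in NIC-Carm1, and 19% rose and 17.8% fell in NIC-Prmt6. Prdm1, a transcription factor of plasma cells that epithelial cells can also make, was higher in all 3 genotypes, by 0.74 ± 0.13, 0.58 ± 0.13 and 0.68 ± 0.15 (adjusted p = 0.00434, 0.0191 and 0.00650). Derl3, a gene of the secretory pathway, fell by 1.32 ± 0.27 in NIC-Prmt1 and 1.69 ± 0.30 in NIC-Prmt6 (adjusted p = 0.00725 and 0.00248).

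Lyve1, a receptor of lymphatic vessels that some macrophages also make, was the only gene of the lymph node list that differed from NIC, and it was higher in all 3 genotypes. It had 475, 447 and 303 normalised reads in NIC-Prmt1 replicates 1 to 3, 450.5, 683 and 656 in NIC-Carm1, 630.3 and 548 in NIC-Prmt6, and 173 and 68.9 in NIC. The log2 fold changes were 1.87 ± 0.35 in NIC-Prmt1 (limma adjusted p = 0.00482), 2.41 ± 0.35 in NIC-Carm1 (adjusted p = 0.00292) and 2.42 ± 0.38 in NIC-Prmt6 (adjusted p = 0.00148). Of all tested genes 15.2% were higher than NIC in NIC-Prmt1, 6.65% in NIC-Carm1 and 19% in NIC-Prmt6. Lyve1 was high in NIC-Prmt1 replicates 1 and 3 and in NIC-Prmt6, the libraries where Chst4 was at 0, so these members of the list did not move together.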
